A study of Mus musculus with 4 samples.

Results

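The smooth muscle actin and contractile genes examined here are 10 genes chosen by name: the actins Acta2, Acta1 and Actg2, the calponin family members Tagln, Cnn1 and Cnn2, the myosin light chain Myl9, the tropomyosins Tpm1 and Tpm2, and caldesmon, Cald1. All probe sets annotated to these symbols were taken, which gave 18 probe sets for 10 of the 12393 genes that the platform's annotation names by 1 symbol. The cells were fibroblasts from mouse embryos, a cultured connective tissue cell, of a strain the labels call C57/BJ6. There were 4 arrays, 1 per group: ribosome-bound (polysome) RNA of cells labelled Npm1+/- (heterozygote), ribosome-bound RNA of cells labelled Npm1+/+ (wild type), total RNA labelled Npm1+/- and total RNA labelled Npm1+/+. Polysome RNA was taken from sucrose gradient fractions, and all RNA was amplified with T7 polymerase and labelled with biotin. The design text speaks of a deletion of Npm1, the gene of the nucleolar protein nucleophosmin, and asks how it alters what is translated. Which part of the gene is lost, how many embryos or passages lie behind a culture, and whether both fractions of a genotype came from the same cells were not found in the labels.

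Contractile genes of this kind build the actin bundles, or stress fibres, with which smooth muscle cells and activated fibroblasts pull on their surroundings. Fibroblasts that carry smooth muscle actin in such bundles are called myofibroblasts, and cultured fibroblasts often take on this state on stiff plastic and in serum. Transcription of many of these genes depends on serum response factor, encoded by Srf, which binds the CArG box in their promoters together with myocardin-related cofactors that are held in the cytoplasm by unpolymerised actin, and transforming growth factor beta is a strong inducer.

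Every value below is a deposited log2 probe set value from 1 array, so there is no p-value, replicate error or test for any difference, and having 4 arrays limits the precision. A difference is a subtraction of log2 values, and 2-fold means an absolute difference of at least 1. A gene with several probe sets is represented by its brightest, and it is called measured where its highest array reached 7.53, the median of all values in the table, called the floor. Among 2700 genes with several probe sets, the SD of a difference between the probe sets of a gene was 0.28 for the genotype labels in polysome RNA and 0.32 in total RNA. For polysome minus total RNA it was 0.24 under the heterozygote label and 0.28 under the wild-type label. It was 0.22 for the association difference, the difference between these last differences. These SDs are a measure of technical disagreement and not of replicate spread.

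The targeted gene, Npm1, did not separate the labels: its brightest probe set read 12.84 under the heterozygote label against 12.93 under the wild-type label in polysome RNA, and 11.96 against 11.91 in total RNA. The other Npm1 probe set differed by 0.06 and 0.07. Whether either probe set reads the deleted stretch could not be worked out. Groups are therefore named by their labels throughout, and no direction is taken as established for the genotypes. The fibroblast label fits the marker list used here, with 12 of 12 listed genes at or above the floor on all 4 arrays, among them Thy1, Dcn and Pdgfrb. Of all 12393 named genes, 7179 reached the floor on at least 1 array. Lum was close to the floor, at 7.54 to 7.93, and Pdgfrb is also on the pericyte list. None of 8 epithelial genes reached the floor on any array. Of 22 striated muscle genes, 1 did, Actc1, at 7.57 to 7.77. Macrophage markers differed between the fractions, with 9 of 14 at or above the floor in the heterozygote-labelled polysome library and 7 in the wild-type-labelled one, against 3 in each total library. The manufacturer's control probe sets for the 3-prime and 5-prime ends of Actb differed by 0.01 to 0.06 on the 4 arrays, and those of Gapdh by -0.09 to 0.12. The control probe sets of the dimmer Pcx and Tfrc differed more, by 0.11 to 0.49 and 1.47 to 1.72. For Pcx the difference was 0.11 under the heterozygote label against 0.25 under the wild-type label in polysome RNA, and 0.27 against 0.49 in total RNA. All Tfrc control values and all 5-prime Pcx values were below the floor, so these differences are not exact. Whether RNA quality has a part in any difference of the contractile genes was not tested. In RNA from whole cultures, fewer cells of a type and less RNA per cell cannot be told apart.

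All 10 contractile genes were measured, and the brightest probe set of each was above the floor on all 4 arrays. Their lowest value was 11.53, for Acta1, where the highest value in the table was 14.57. Tagln, Acta2 and Tpm1 gave signals brighter than more than 99.9% of all probe sets on the mean of the 4 arrays. Levels of different probe sets cannot be compared as RNA amounts, because probes differ in how well they bind. A probe set this near the top of the range may have little room to read higher, which was not tested. None of the 10 genes differed by 2-fold in any of the 5 comparisons, beside shares of all measured genes of 1.25% and 1.73% between genotype labels in polysome and total RNA, 0.766% and 0.919% between fractions under the heterozygote and wild-type labels, and 0.0% for the association difference. The genes that averaged at least 12 give the scale of differences at this brightness. Of 403 such genes, 0.993% differed by 2-fold between the genotype labels in polysome RNA and 1.24% in total RNA.

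**Figure D1:**
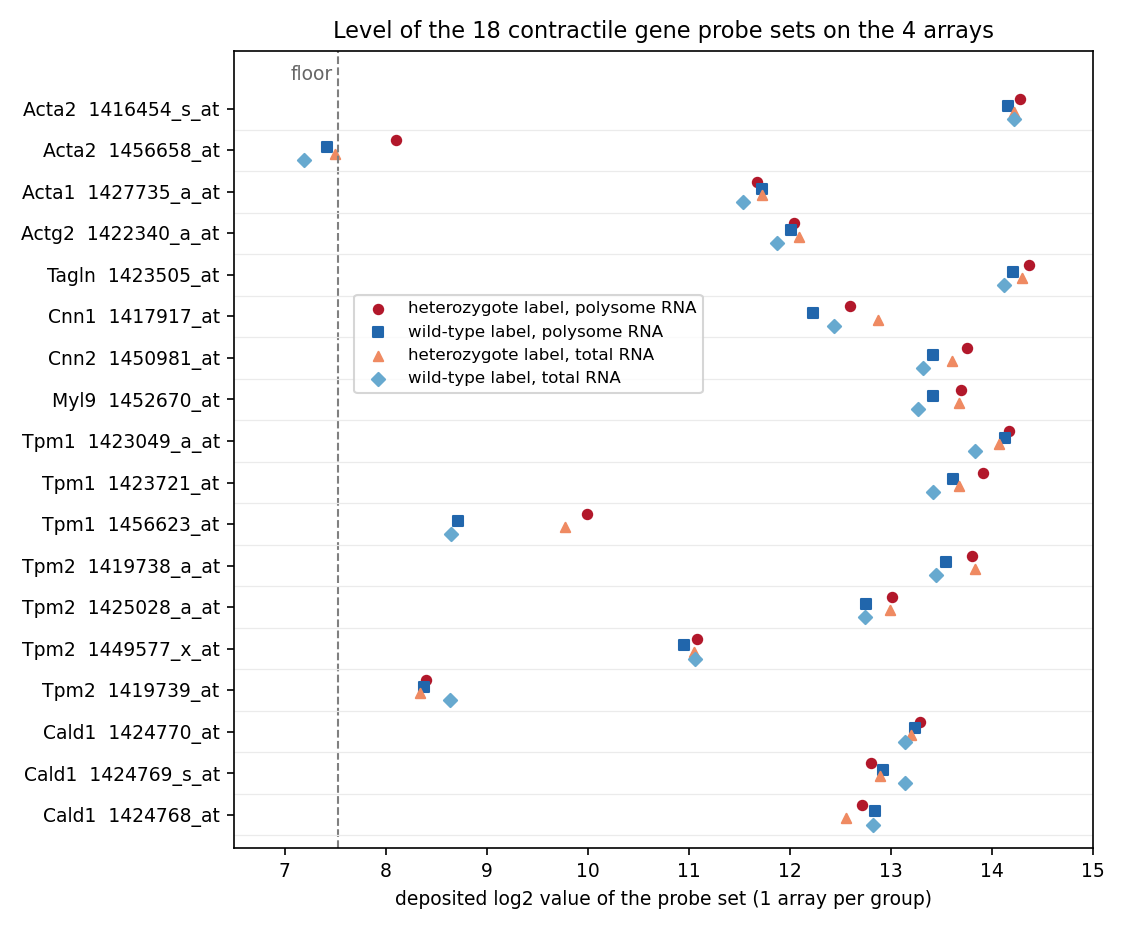
Deposited log2 values (horizontal axis) of the 18 probe sets of the 10 contractile genes, 1 row each, on the heterozygote polysome, wild-type polysome, heterozygote total and wild-type total arrays, 1 point per array, with no error bars because there is 1 array per group. The brightest probe set of every gene lies far to the right of the floor of 7.53, and the 4 arrays differ most at the dim Tpm1 probe set, with 9.99 and 9.77 under the heterozygote label against 8.72 and 8.64 under the wild-type label.

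Smooth muscle alpha-actin, encoded by Acta2, is the actin that marks myofibroblasts. Its bright probe set read 14.28 in the heterozygote-labelled polysome library against 14.17 in the wild-type-labelled one, and 14.22 in both total libraries, whose deposited values were identical. The spread over all 4 arrays was 0.11, so no group stood apart. This probe set carries the suffix _s_at, by which the manufacturer marks probes shared by several transcripts or genes, and the muscle actins are close relatives. A second, dim Acta2 probe set was above the floor only in the heterozygote-labelled polysome library, at 8.10, against 7.42 in the wild-type-labelled polysome library. In total RNA it read 7.49 under the heterozygote label and 7.19 under the wild-type label. Its difference between genotype labels was 0.68 in polysome RNA (1.61-fold) and 0.30 in total RNA, where the bright probe set gave 0.11 and 0.00. The probe sets of Acta2 thus disagreed by 0.57 in polysome RNA, more than the SD between probe sets, and the dim one had only 1 array above the floor.

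Acta1 encodes the skeletal muscle alpha-actin. It gave 11.67 in the heterozygote-labelled polysome library and 11.72 in the wild-type-labelled one. In total RNA it read 11.72 under the heterozygote label and 11.53 under the wild-type label. The wild-type-labelled total library was the lowest of the 4, and the other arrays were close to each other. Actg2, the gamma-actin of intestinal smooth muscle, read 12.04 under the heterozygote label and 12.02 under the wild-type label in polysome RNA, and 12.09 under the heterozygote label and 11.88 under the wild-type label in total RNA. The order of the 4 arrays differed between these actins except at the low end, which was the wild-type-labelled total library in each. Both stayed within the SD between probe sets in both genotype comparisons. Both rest on 1 probe set of the _a_at kind, which covers several transcripts of a gene. Whether these probe sets also read RNA of the other actins could not be worked out.

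Tagln encodes transgelin, also called SM22-alpha, a calponin-related protein that binds actin filaments. It read 14.36 in the heterozygote-labelled polysome library against 14.21 in the wild-type-labelled one, and 14.29 against 14.12 in total RNA. Both heterozygote-labelled libraries were above both wild-type-labelled ones, by 0.15 (1.11-fold) in polysome and 0.17 (1.13-fold) in total RNA. The median measured gene differed by 0.11 and 0.19 in these comparisons, so Tagln lay 0.05 above it in polysome RNA and 0.01 below it in total RNA.

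Calponin 1, encoded by Cnn1, inhibits the ATPase activity of myosin on actin and is typical of contractile smooth muscle. It had the largest range of the brightest probe sets, 0.65, with 12.60 under the heterozygote label and 12.23 under the wild-type label in polysome RNA, and 12.88 under the heterozygote label and 12.44 under the wild-type label in total RNA. The genotype-label differences of 0.37 (1.29-fold) and 0.44 (1.35-fold) were both larger than the SD between probe sets and were the largest among the 10 genes. Of all 7179 measured genes, 86.5% had a lower value of this difference in polysome RNA and 79.1% in total RNA. Cnn1 also read lower in polysome than in total RNA under both genotype labels, as deposited and under the 3 other scalings tried.

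Calponin 2, encoded by Cnn2, is the broadly expressed form and is found in non-muscle cells. Its values were 13.76 in the heterozygote-labelled polysome library against 13.42 in the wild-type-labelled one, and 13.61 against 13.32 in total RNA. The difference was larger than the SD between probe sets in polysome RNA (0.34, 1.27-fold) and smaller in total RNA (0.29, 1.22-fold).

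Myl9 encodes the regulatory myosin light chain of smooth muscle, whose phosphorylation switches on contraction. It read 13.69 under the heterozygote label and 13.41 under the wild-type label in polysome RNA, and 13.67 under the heterozygote label and 13.27 under the wild-type label in total RNA. Both heterozygote-labelled libraries lay within 0.02 of each other and above both wild-type-labelled ones. The difference was 0.40 (1.32-fold) in total RNA, past the SD between probe sets, and 0.28 (1.21-fold) in polysome RNA, at that SD.

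The promoters of Cnn2, Myl9 and Acta1 are shown because, of the 10 genes, only these had a CArG box of the strict form in the windows described below. The CArG box is the binding sequence of serum response factor. The stretches are from RefSeq on the build GRCm38.p6, in the direction of the gene, with the CArG box in capitals. They hold up to 60 bases on each side of it and end before the first base of the gene.
Cnn2, chr10:79988484-79988599, plus strand: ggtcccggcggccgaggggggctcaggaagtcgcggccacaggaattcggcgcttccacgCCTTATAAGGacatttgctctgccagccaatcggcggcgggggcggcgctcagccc
Myl9, chr2:156775243-156775372, plus strand: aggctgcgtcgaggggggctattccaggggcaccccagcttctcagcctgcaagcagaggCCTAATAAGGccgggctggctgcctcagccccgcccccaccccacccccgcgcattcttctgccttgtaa
Acta1, chr8:123894779-123894908, minus strand: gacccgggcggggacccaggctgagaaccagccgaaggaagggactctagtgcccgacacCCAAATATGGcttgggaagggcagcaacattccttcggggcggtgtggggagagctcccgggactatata
The box begins 56 bases before the listed start in Cnn2, 161 in Myl9 and 73 in Acta1. The search took the strict CArG box alone, in windows of 250 bases before to 50 after each listed start. The strict form is CC and GG around a core of A and T only, and it reads as the same pattern on either strand. Boxes with a G or C in the core were not searched for. Of the 10 genes 8 had a window, and these genes had 9 windows in all. The box was in 3 of the 9, against 1.63% of all 32851 windows. The genes were chosen by name as contractile genes, many of which depend on serum response factor, so this share is no result of the arrays. A match describes the letters only, and no match in this window says nothing about variant boxes or the factor at Acta2, Cnn1, Tpm1, Tpm2 or Cald1. Tagln and Actg2 had no window to search.

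Tropomyosins lie along the actin filament and govern access of myosin to it, and Tpm1 and Tpm2 each give many isoforms by alternative splicing. The brightest Tpm1 probe set read 14.17 in the heterozygote-labelled polysome library against 14.13 in the wild-type-labelled one, and 14.07 against 13.83 in total RNA. The next probe set read 13.92 against 13.62 in polysome RNA and 13.68 against 13.42 in total RNA. In both, the heterozygote-labelled library was the higher one of each fraction, by 0.05 to 0.30.

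The dimmest Tpm1 probe set was the exception among all 18. It read 9.99 in the heterozygote-labelled polysome library against 8.72 in the wild-type-labelled one, and 9.77 against 8.64 in total RNA. Both heterozygote-labelled libraries were more than 1 log2 unit above both wild-type-labelled ones, with differences of 1.27 in polysome RNA (2.42-fold) and 1.13 in total RNA (2.18-fold). All 4 values were above the floor. It was the 1 of 18 probe sets past 2-fold in each fraction. Of the 11203 named probe sets at or above the floor, 2.09% were past 2-fold in polysome RNA and 0.205% were so on the higher side, and in total RNA these shares were 2.59% and 0.437%. After subtraction of a loess trend of the difference on level, the difference in total RNA was 0.97, below 2-fold, and 1.19 in polysome RNA. The Tpm1 isoform that it reads was not worked out, and the Tpm1 probe sets disagreed by up to 1.23 in polysome RNA.

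For Tpm2, which encodes beta-tropomyosin, the brightest probe set read 13.80 against 13.54 under the heterozygote and wild-type labels in polysome RNA and 13.84 against 13.45 in total RNA. The differences were 0.26 (1.20-fold) and 0.39 (1.31-fold), the second past the SD between probe sets. The other 3 probe sets of Tpm2 gave 0.02 to 0.25 in polysome RNA and -0.29 to 0.25 in total RNA, so they did not share a direction in total RNA. The dimmest, at 8.34 under the heterozygote label against 8.64 under the wild-type label there, was the lowest of the 18 differences.

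Cald1 encodes caldesmon, which binds actin, myosin and calmodulin and restrains their interaction. Its brightest probe set read 13.29 in the heterozygote-labelled polysome library against 13.24 in the wild-type-labelled one, and 13.20 against 13.14 in total RNA. The other probe sets were lower under the heterozygote label, with -0.12 and -0.13 in polysome RNA and -0.25 and -0.27 in total RNA. Cald1 thus had no shared direction between its 3 probe sets, and all 6 differences were within the SD between probe sets.

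Over the 10 genes, the heterozygote-labelled library was the higher one for 9 genes in polysome RNA, with Acta1 as the exception, and for 9 in total RNA, with Acta2 equal. With a loess trend of the difference on level subtracted, it was the higher one for 6 of 10 in polysome RNA, with Acta1, Actg2, Tpm1 and Cald1 below 0, and for 7 of 10 in total RNA, with Acta2, Acta1 and Cald1 below 0. The median difference was 0.13 in polysome RNA and 0.23 in total RNA, beside 0.11 and 0.19 over all 7179 measured genes. Relative to the median gene, 6 of 10 were above and 4 below in polysome RNA, and 7 above and 3 below in total RNA. These counts were the same after quantile normalisation and with the loess trend subtracted. They were also the same with arrays centred on their medians, but centring shifts all genes of a comparison alike and could hardly change them. The gap between the medians of the 10 genes and of all measured genes was 0.03 in polysome and 0.04 in total RNA as deposited, but 0.06 and 0.17 after quantile normalisation and 0.08 and 0.17 with the loess trend subtracted. Past the SD between probe sets were 2 of 10 in polysome RNA, Cnn1 and Cnn2, and 3 of 10 in total RNA, Cnn1, Myl9 and Tpm2. Of all measured genes 39.6% were past that SD in polysome RNA and 49.5% in total RNA, so passing it does not set these genes apart. With 1.25% and 1.73% of all genes past 2-fold in polysome and total RNA, a count of 0 of 10 does not set the contractile genes apart.

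**Figure D2:**
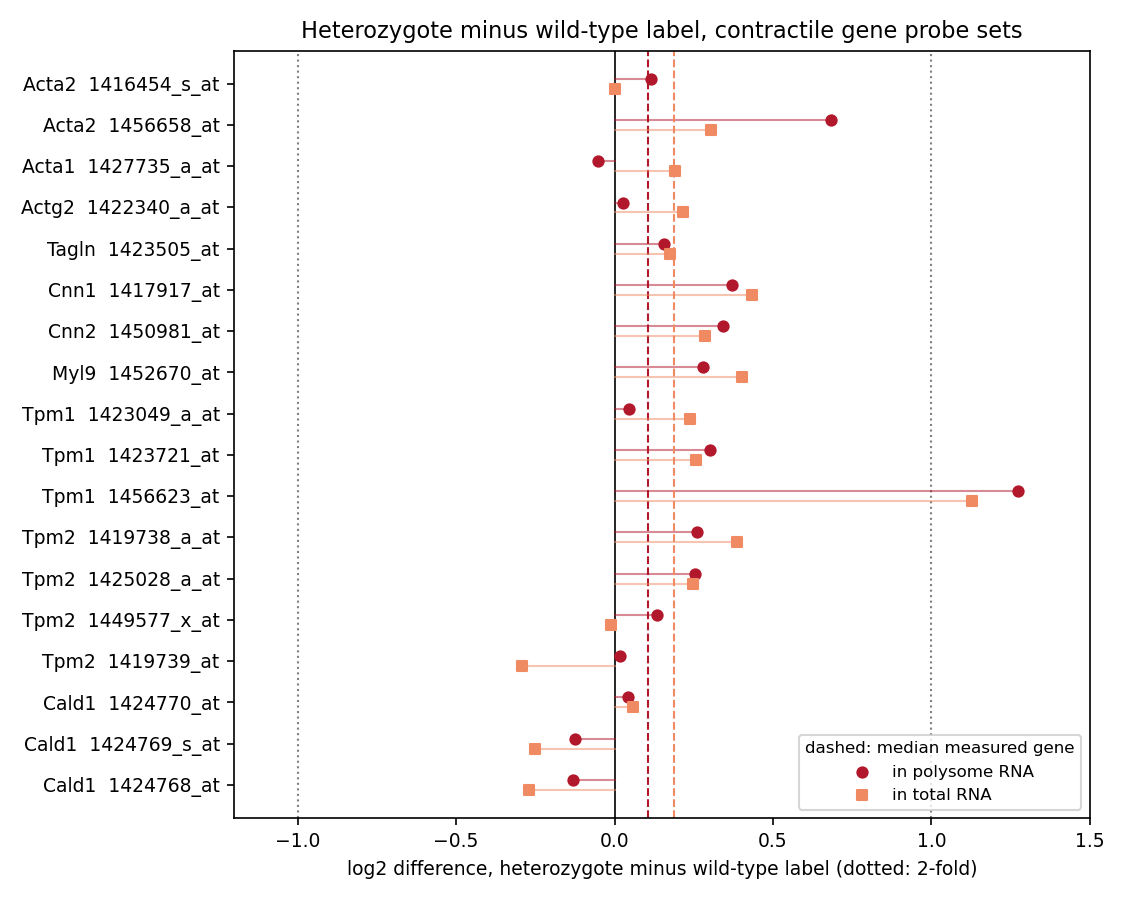
Heterozygote minus wild-type log2 difference (horizontal axis) for the 18 probe sets in polysome RNA (circles) and total RNA (squares), with the median measured gene as dashed lines at 0.11 and 0.19 and 2-fold as dotted lines. Most points lie between 0.00 and 0.44, and only the dim Tpm1 probe set passes 2-fold, at 1.27 and 1.13.

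The comparison of polysome with total RNA asks which of these mRNAs were held on ribosomes, as far as the labels name the fractions correctly. The 10 genes differed little between the fractions. Under the heterozygote label the differences of the brightest probe sets ran from -0.28 for Cnn1 to 0.15 for Cnn2, with a median of 0.04 beside 0.07 over all measured genes. Under the wild-type label they ran from -0.21 for Cnn1 to 0.29 for Tpm1, with a median of 0.10 beside 0.14. None of the 18 probe sets was past 2-fold, where 0.768% of named probe sets at or above the floor were under the heterozygote label and 0.893% under the wild-type label. Cnn1 had 12.60 in polysome against 12.88 in total RNA under the heterozygote label and 12.23 against 12.44 under the wild-type label. Of all measured genes 5.24% and 7.69% had a lower value of this difference than Cnn1. Of the 10 genes only Cnn1 passed the SD between probe sets under the heterozygote label, and only Tpm1 under the wild-type label, with 14.13 in polysome against 13.83 in total RNA. Of all measured genes 26.0% and 31.3% passed it. At its second probe set Tpm1 gave 0.20 under the wild-type label and 0.24 under the heterozygote label.

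Among the other probe sets, the dim one of Acta2 had the largest fraction difference, 0.61 under the heterozygote label, from 8.10 in polysome and 7.49 in total RNA, and 0.23 under the wild-type label. Of 14 macrophage markers on the array, 6 were past 2-fold higher in polysome RNA under each label. Lyz2, the macrophage lysozyme gene, was above the floor on all 4 arrays and read 10.46 in polysome against 8.20 in total RNA under the heterozygote label, and 9.82 against 7.59 under the wild-type label. C1qa, C1qb, C1qc, Ctss and Fcer1g, also past 2-fold, were below the floor in both total libraries, so no exact size is given for them. They counted as measured only through the polysome libraries, and C1qc was below the floor in the wild-type-labelled one as well, at 6.86. The log2 of the summed level of the 14 macrophage markers was 12.03 and 11.64 in the heterozygote- and wild-type-labelled polysome libraries, against 10.70 and 10.42 in the total libraries. Whether macrophage RNA has a part in any fraction difference of the contractile genes was not tested.

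**Figure D3:**
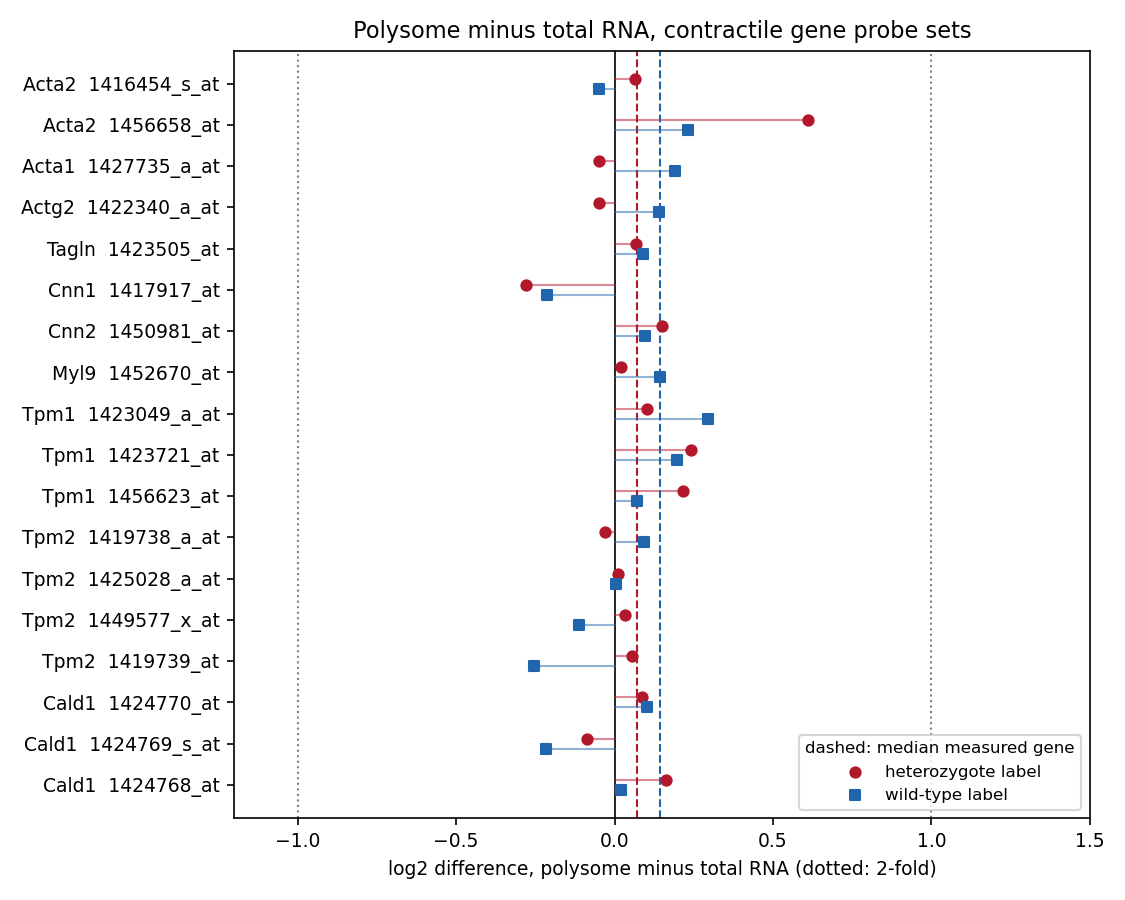
Polysome minus total log2 difference (horizontal axis) for the 18 probe sets under the heterozygote label (circles) and the wild-type label (squares), with the median measured gene as dashed lines at 0.07 and 0.14 and 2-fold as dotted lines. No probe set passes 2-fold, Cnn1 lies below 0 under both labels at -0.28 and -0.21, and the dim Acta2 probe set is farthest from 0, at 0.61 under the heterozygote label.

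The association difference, which asks whether the polysome minus total difference depends on the genotype label, ran from -0.24 for Acta1 to 0.11 for Acta2 over the brightest probe sets. Its median was -0.09 over the 10 genes, with 2 above and 8 below 0, beside -0.07 over all measured genes. Over all 18 probe sets the median was 0.03, with 10 above and 8 below 0, so the sign of the median depends on which probe sets are taken. No member and 0.0% of all measured genes were past 2-fold. Acta1 was the 1 gene of 10 past the SD between probe sets, beside 21.9% of all measured genes, and over all 18 the dim Acta2 probe set (0.38) and the dimmest Tpm2 probe set (0.31) were past it as well. Neither of these last was the brightest of its gene.

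Other lists around the contractile genes gave the following counts between genotype labels, each over 1 array per group, where 1.17% of all measured genes were 2-fold lower in polysome RNA and 1.49% in total RNA. Of 15 late smooth muscle genes on the array 10 were measured, and 1 was 2-fold lower in each fraction: the integrin gene Itga8 read 6.26 in the heterozygote-labelled polysome library against 7.36 in the wild-type-labelled one, and 7.34 against 8.36 in total RNA, so that 3 of its 4 values were below the floor. Csrp1, a LIM protein gene of smooth muscle, was at 0.47 in polysome and 0.57 in total RNA. Myh11, the smooth muscle myosin heavy chain, and Myocd, the coactivator myocardin, were singled out after their values were seen, as the defining genes of that lineage. Myh11 stayed below the floor on all 4 arrays, at 6.21 to 7.16, and so did Myocd, at 4.95 to 5.54. The list as a whole was mixed, with 8 or 9 of the 15 genes at or above the floor on each array. Csrp1 (12.90 to 13.47), Pdlim7 (11.85 to 12.26) and Mylk (10.54 to 10.95) were well above it. The late smooth muscle list had a median of 0.07 in both fractions.

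Of 13 measured genes of cytoplasmic actin, myosin and their partners, 2 were past 2-fold and both were lower under the heterozygote label. The non-muscle myosin heavy chain Myh9 was at -1.32 in polysome and -1.48 in total RNA and lower at all 4 of its probe sets, and the essential light chain Myl6 was at -1.23 and -1.25 at its only probe set. Myl6 was nearer the floor than Myl9, at 8.02 under the heterozygote label and 9.25 under the wild-type label in polysome RNA, and 7.88 and 9.13 in total RNA. Myh9 and Myl6 thus lay on the other side of 0 from the brightest probe sets of Myl9, Tpm1 and Tpm2. Dimmer Tpm2 probe sets were below 0 in total RNA as well, at -0.01 and -0.29. Of the 13 genes, 8 were above 0 and 5 below in polysome RNA, and 7 above and 6 below in total RNA. Medians of this list were 0.13 and 0.00.

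Serum response factor, Srf, read 10.07 in the heterozygote-labelled polysome library against 9.65 in the wild-type-labelled one and 9.96 against 9.39 in total RNA, a difference of 0.42 and 0.58, and its other probe set gave 0.18 and 0.37. None of 7 measured genes for Srf and its cofactors passed 2-fold, and Elk4, a partner of Srf, was at 0.84 and 0.79 at its brightest probe set but below 0 at the others. Of 21 measured targets of Srf and its cofactors outside the 10 genes, 2 were past 2-fold lower in each fraction, Myh9 and the talin gene Tln1 (-1.08 in polysome and -1.25 in total RNA, but -0.19 and -0.29 at its dimmer probe set). The medians of these targets were 0.12 and 0.00. Tln1 was also the 1 of 13 focal adhesion genes past 2-fold. Vinculin, Vcl, was at -0.54 and -0.73 at its brightest probe set, and at -1.75 and -1.69 at the other.

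Of 19 measured genes of transforming growth factor beta signalling, 2 were past 2-fold lower under the heterozygote label in each fraction, the latent binding proteins Ltbp1 (-1.11 in polysome and -1.10 in total RNA) and Ltbp2 (-1.18 and -1.10), with list medians of 0.23 and 0.25. Of 18 measured matrix genes typical of myofibroblasts, 2 were past 2-fold lower in polysome RNA and 3 in total RNA. These were Tnc (-1.71 and -1.76) and Thbs2 (-1.70 and -1.72) in both and Col5a1 (-0.88 and -1.02) in total RNA, and the list medians were -0.18 and -0.23. The 10 contractile genes, with medians of 0.13 and 0.23, were on the other side of 0 from the matrix list, as was the median of all measured genes at 0.11 and 0.19, so this is not particular to them. These lists share genes and were chosen with earlier results of these data known.

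**Figure D4:**
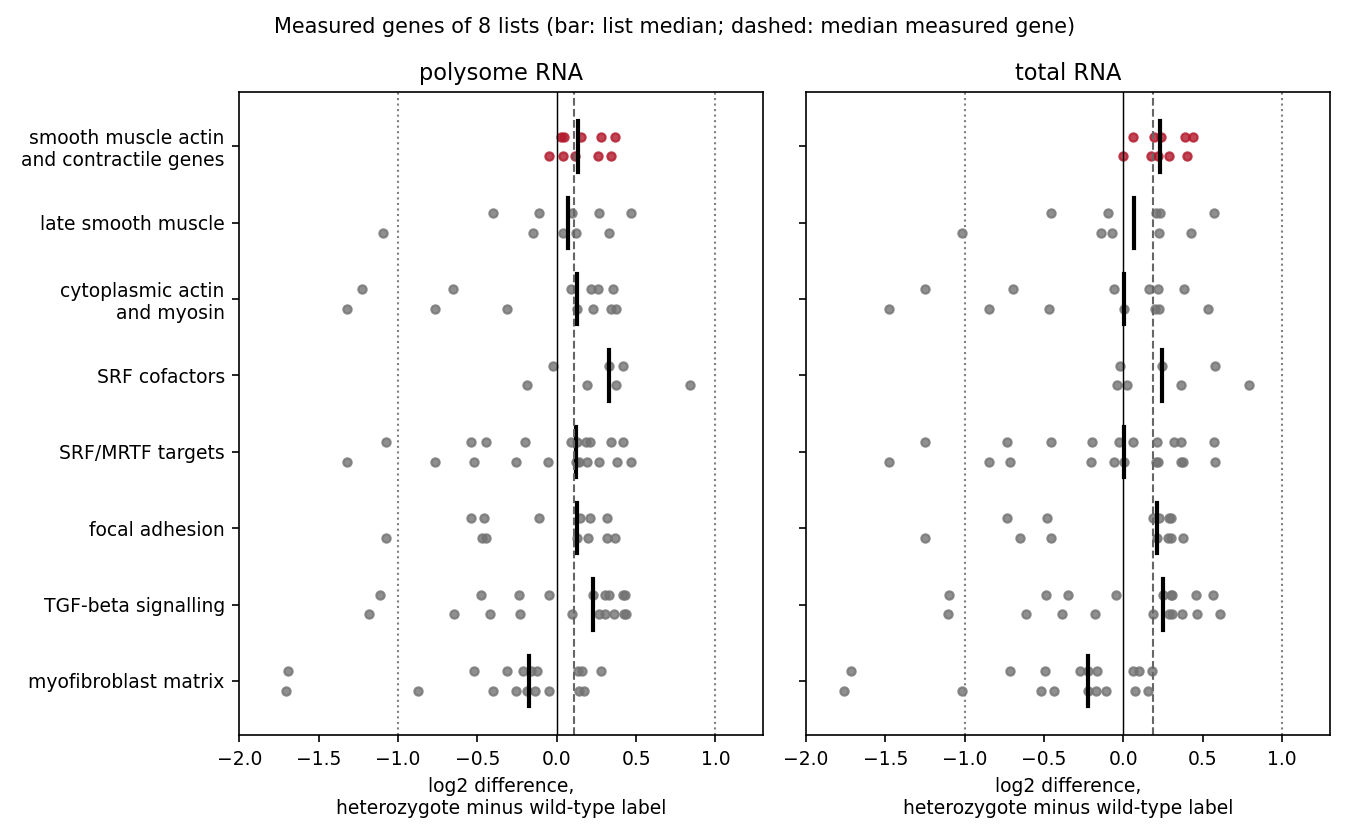
Heterozygote minus wild-type log2 difference (horizontal axis) of each measured gene in 8 lists, 1 point per gene, in polysome RNA (left) and total RNA (right), with list medians as bars and the median measured gene as a dashed line. The contractile genes fall in a narrow band from -0.05 to 0.37 and from 0.00 to 0.44, while Myh9, Tln1, Tnc and Thbs2 in the other lists lie past 2-fold on the lower side.

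Many genes had a pattern over the 4 arrays close to that of Acta2 or Tagln. Likeness was the root mean square difference between the 4 values of each gene after subtraction of its own mean. Closest to Acta2 were Eid1 (0.00769), Zfyve19, Adprm, Capn15 and Styx (0.0198). Closest to Tagln were Rnf181 (0.00904), Samd4, Aspscr1, Ube2e1 and Golm1 (0.0121). Of the 7169 other measured genes, 1090 were within 0.1 of Acta2 and 1751 within 0.1 of Tagln, so with 4 nearly equal values these names do not single out a group.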

How the data were processed

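The deposited table holds log2 values for 22690 probe sets on 4 Affymetrix arrays. Per the submitters' processing notes, R 3.4.3, affy 1.56.0 and RMA were used, so the log2 values were normalised between arrays by the authors before they were deposited. RMA settings, annotation build and detection calls are not given in the sources used here. Of 20380 probe sets with 1 gene symbol (controls left out), 20351 had an Entrez number found in RefSeq, and no symbol changed. The 691 with several symbols were not named. Array medians were 7.47 to 7.59.

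Differences, counts and medians were computed with Python 3.11.15, pandas 2.3.3 and statsmodels 0.14.6. The brightest probe set stood for a gene, and 7179 genes reached the floor. The calculation was tested on simulated data. With 1 array per group no test could be run. Lists named were the members, late smooth muscle, striated muscle, cytoplasmic actin and myosin, Srf cofactors, Srf targets, focal adhesion, transforming growth factor beta, myofibroblast matrix, fibroblast, pericyte, macrophage, endothelial and epithelial genes. From each list other than the members, the rule named measured genes past 2-fold in any comparison and the 2 with the largest genotype-label difference in total RNA. The members and lists were chosen with earlier results of these data known. Results of 1 further list are not reported here. Alternatives were other probe set summaries, floors, scalings and thresholds.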

Additional observations from a re-analysis of the deposited data

Results flagged for a closer look

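With 1 array per group, a contrast that has opposite signs in 2 arms was noted for each member probe set, and none of these differences was tested. Between genotype labels, the sign differed between polysome and total RNA at Acta1 (-0.05 and 0.19, association difference -0.24), at the _x_at probe set of Tpm2 (0.13 and -0.01, association difference 0.15) and at the dimmest Tpm2 probe set (0.02 and -0.29, association difference 0.31). Between polysome and total RNA, the sign differed between the heterozygote and wild-type labels at the same 3 probe sets. It also differed at the bright Acta2 probe set (0.06 and -0.05, association difference 0.11), at Actg2 (-0.05 and 0.14, association difference -0.19) and at the brightest Tpm2 probe set (-0.03 and 0.09, association difference -0.12). Of these 6 probe sets, Acta1 and the dimmest Tpm2 probe set had an association difference past the SD between probe sets of 0.22.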

How the results depend on the processing

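No paired analysis was possible because each group has 1 array. The count of 0 of 10 genes past 2-fold was the same in all 5 comparisons under all 9 alternatives, thresholds of 1.5-fold and 3-fold included. Some of these could not change it: a 3-fold threshold cannot raise a count of 0. All 10 genes lay above every floor tried, the highest being 9.33. The alternatives without a floor or with that one therefore left the counts and medians of the 10 genes as they were. The median over the 10 genes ran from 0.09 to 0.22 between genotype labels in polysome RNA and from 0.18 to 0.26 in total RNA over 7 alternatives, always above 0. For polysome minus total RNA it ran from -0.06 to 0.04 under the heterozygote label, below 0 in 3 alternatives, and from -0.04 to 0.12 under the wild-type label, below 0 in 1. The median of the association difference over the 10 genes ran from -0.09 to -0.01, and over all 18 probe sets it was 0.03. The probe set count was examined under alternatives chosen after seeing the data: in total RNA the 1 probe set past 2-fold became 0 with the loess trend subtracted or a 3-fold threshold, and in polysome RNA it became 2 at 1.5-fold and 0 at 3-fold. Under the heterozygote label, 1 probe set passed 1.5-fold between the fractions. Quantile normalisation took the median of all genes in total RNA to 0.08 and the loess trend took it to 0.03, against 0.19 as reported, while the median of the 10 genes was 0.25, 0.20 and 0.23 under these settings. Acta2 and Tpm1 depended on the probe set: with the mean of all probe sets the genotype-label difference of Tpm1 in polysome RNA was 0.54, against 0.05 as reported, and that of Acta2 was 0.40, against 0.11, or 0.68 without its _s_at probe set. Whether brightness near the top of the range limits what the brightest probe sets can show was not tested. The cause of these shifts was not tested.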

Other observations

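Genes of other cell types around the smooth muscle lineage gave these values. Of 8 pericyte genes 5 were measured, and at the brightest probe sets none was past 2-fold and 4 of 5 were lower under the heterozygote label in each fraction, with medians of -0.29 in polysome and -0.54 in total RNA. The exception was Rgs5, a regulator of G protein signalling typical of pericytes, which read 8.23 in the heterozygote-labelled polysome library against 7.55 in the wild-type-labelled one, and 7.58 against 6.79, below the floor, in total RNA. Its other probe sets, all below the floor, gave differences of -0.09 to 0.38. The total RNA median was the value of Notch3, which read 6.71 under the heterozygote label and 7.25 under the wild-type label there, both below the floor. Over all 8 pericyte genes on the array, the medians were -0.24 in polysome and -0.32 in total RNA. Cspg4, the NG2 proteoglycan gene, was at -0.53 in polysome and -0.83 in total RNA, and at -0.75 and -1.14 at its other probe set. Of 9 endothelial genes 2 were measured, Flt1 at -0.10 and -0.18 and Kdr at -0.12 and -0.30. The polysome values of Kdr, 7.35 and 7.48, were below the floor. The other Flt1 probe sets gave -0.56 and -0.81 in polysome RNA, the first with a heterozygote-labelled value of 7.12, below the floor. In total RNA, where they were below the floor, they gave -0.22 and -0.31. Among fibroblast genes, Dcn, which encodes decorin, was past 2-fold higher in polysome than in total RNA, by 1.16 under the heterozygote label and 1.37 under the wild-type label, and Fap was at 0.85 and 1.09. Eln, the elastin gene of the matrix list, was past 2-fold lower in polysome RNA at its brightest probe set, at -1.73 and -1.79. At its other probe set it was not, at -0.73 under the heterozygote label and -0.80 under the wild-type label. None of these differences has a replicate check.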
